A study of Mus musculus with 24 samples.

Results

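The serotonin receptor genes measured here are 10 of the 14 serotonin receptor symbols among the 24411 genes of the hippocampal tables. They were chosen by a list of symbols, namely Htr1a, Htr1b, Htr1d, Htr1f, Htr2a, Htr2c, Htr3a, Htr4, Htr6 and Htr7, that was drawn up with the values of these mice in view. Their differences between treated and saline-treated mice are therefore given as a description and support nothing by themselves. Htr2b, Htr3b, Htr5a and Htr5b, the remaining 4 receptor genes, are described at the end as part of the pathway.

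Whole hippocampi were taken from 17 aged male C57BL/6 mice aged 20 months, each injected intravenously with 100 μl on 8 occasions spread over 24 days. Of these mice, 5 were given saline, 6 the young blood plasma preparation and 6 the young platelet fraction, which is the pellet of plasma from 3-month-old mice resuspended in saline. Saline is the only control, and no group of young mice was part of the hippocampal data used here. Microglia isolated from the hippocampus of aged mice given saline (n = 3) or the platelet chemokine PF4 (n = 4) were also sequenced, and the receptors' levels there are described below. The replicate is a mouse, and each hippocampal mouse is named by the number in its label.

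Serotonin reaches the hippocampus along axons of the raphe nuclei of the brainstem, whose cell bodies, and with them most of the messenger RNA for making serotonin, lie outside the dissected tissue. Its receptors fall into classes by what they couple to. Htr1a, Htr1b, Htr1d and Htr1f encode receptors that act through inhibitory G proteins and lower cyclic AMP, Htr2a and Htr2c encode receptors that act through Gq and phospholipase C, Htr4, Htr6 and Htr7 encode receptors that raise cyclic AMP through Gs, and Htr3a encodes a subunit of a cation channel opened by serotonin. In the hippocampus Htr1a is known as a receptor of pyramidal and granule neurons, Htr3a is known from interneurons, and Htr2c is abundant in the epithelium of the choroid plexus, which lies against the hippocampus.

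The stretches of DNA around the annotated starts of Htr1a, Htr6 and Htr2c are shown because the results below turn on these genes. Each runs 5′ to 3′ on the gene's strand from 250 bases before the start to 50 after it, as RefSeq places it on GRCm38.p6 (the mm10 assembly). Capitals mark a GC box (GGGCGG, read on either strand, overlapping matches counted), a motif picked with the sequences at hand.
Htr1a, chr13:105443443-105443742, plus strand: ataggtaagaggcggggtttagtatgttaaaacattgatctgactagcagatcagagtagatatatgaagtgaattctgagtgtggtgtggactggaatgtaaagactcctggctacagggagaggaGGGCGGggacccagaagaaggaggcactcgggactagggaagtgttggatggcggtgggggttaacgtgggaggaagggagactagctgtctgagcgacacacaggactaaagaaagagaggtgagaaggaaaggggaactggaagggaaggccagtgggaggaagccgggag
Htr6, chr4:139075521-139075820, minus strand: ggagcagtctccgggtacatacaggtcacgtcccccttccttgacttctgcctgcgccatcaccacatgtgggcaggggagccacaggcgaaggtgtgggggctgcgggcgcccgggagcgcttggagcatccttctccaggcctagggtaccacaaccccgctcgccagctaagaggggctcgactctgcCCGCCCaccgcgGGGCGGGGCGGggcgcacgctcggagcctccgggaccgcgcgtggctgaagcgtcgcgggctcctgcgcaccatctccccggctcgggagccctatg
Htr2c, chrX:146962263-146962562, plus strand: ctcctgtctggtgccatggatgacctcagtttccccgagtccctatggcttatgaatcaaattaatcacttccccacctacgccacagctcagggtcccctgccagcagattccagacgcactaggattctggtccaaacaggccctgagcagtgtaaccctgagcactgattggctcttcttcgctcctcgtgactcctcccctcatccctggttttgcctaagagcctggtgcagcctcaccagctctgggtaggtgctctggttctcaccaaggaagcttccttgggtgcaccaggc
The Htr1a window held 1 GC box, the Htr6 window shown 3 and the Htr2c window 0, and a GC box was present in 35.7% of the 32851 windows of this length in the table. Neither a TATA box (TATAAA, in 13.6% of all windows) nor a full cyclic AMP response element (TGACGTCA, in 1.79%) was found in these 3 windows. A second annotated start of Htr6, with its window at chr4:139074740-139075039, held 0 GC boxes. A window was listed for 8 of the 10 genes. These matches describe letters, not binding.

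By annotation (GENCODE M21 on GRCm38), Htr1a lies on chromosome 13 from 105443639 to 105448122 and its transcript is a single exon of 4484 bases. Htr6 lies on chromosome 4 from 139061108 to 139075570 with 4 exons in its longest coding transcript, and Htr2c on chromosome X from 146962513 to 147197277 with 7. Htr2a lies on chromosome 14 from 74640840 to 74709494 with 3 exons. Htr1b and Htr3a are each overlapped by an antisense gene on the opposite strand, D430036J16Rik and Gm32335, and Htr2c hosts microRNA genes and a small nucleolar RNA on its own strand. Because the labels name a strand-specific kit and the methods Smart-Seq2, which does not keep strand, reads of Htr1b and Htr3a cannot be told apart from those of their antisense partners with certainty.

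The libraries held 6140510 to 10522699 counted reads after saline, 6586357 to 7739868 after young plasma and 6763608 to 7438930 after the young platelet fraction. On the first principal component of the 10585 genes with a mean normalized count of 50 or more, 5 libraries stood apart. They came from mice 7146 and 7152 of the saline group, mice 7147 and 7150 given young plasma, and mouse 7148 given the young platelet fraction. A transcript length score, the median log2 deviation of genes with coding transcripts over 5000 bases minus that of genes under 2000 bases, ran from -0.40 to -0.05 in these 5 libraries and from -0.11 to 0.42 in the other 12. Transcripts of the choroid plexus also varied widely between mice, as described with Htr2c. Of the raphe markers, Slc6a4, Fev and Gata3 averaged under 10 normalized counts. The remaining marker, Tph2, was detected at a low level. Its means were 15.6 in the saline group, 16.0 in mice given young plasma and 13.2 in mice given the platelet fraction. The limma p-values below set a difference between groups against the spread between mice, moderated over all genes tested. The permutation p-values test the pairing of a gene with a list score across mice.

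Divided by transcript length, Htr3a was the most abundant of the 10 receptors and Htr1d the least. RPKM, the reads per kilobase of the longest coding transcript scaled to the library total, had a median over the 17 mice of 17.8 for Htr3a, with a range of 10.8 to 22.6. Htr1a followed at 9.38 (6.39 to 12.7), and Htr3a was above Htr1a in 17 of 17 mice. Htr3a alone made up a median of 37.9% of the summed level of the 10 genes. Its first place rests on dividing by length, since Htr1a had 5488 reads in all and Htr3a 4710. The limit from the antisense gene that overlaps Htr3a applies here too.

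Htr1a, Htr4 and Htr2c formed a middle tier, with medians of 9.38, 8.05 and 7.63 RPKM. Htr1a exceeded Htr4 in 12 of 17 mice and Htr4 exceeded Htr2c in 9 of 17, so that the order of Htr4 and Htr2c did not hold beyond the spread between mice. The level of Htr2c depends on its length, since over the union of its annotated exons the median was 4.00 RPKM, still the fourth of the 10. A wide step followed, and Htr2c was above Htr7, the next gene, in 16 of 17 mice.

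Htr7 and Htr2a had medians of 1.90 and 1.60 RPKM, with Htr7 the higher in 10 of 17 mice. Htr1f (0.810), Htr6 (0.760) and Htr1b (0.469) stood below 1 RPKM, and Htr1f exceeded Htr6 in 10 of 17 mice. Htr1d was lowest, with a median of 0.102 RPKM and 47 reads in all 17 libraries together. It was the only one of the 10 that did not reach 10 normalized counts in 5 libraries, and it was not tested.

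**Figure D1:**
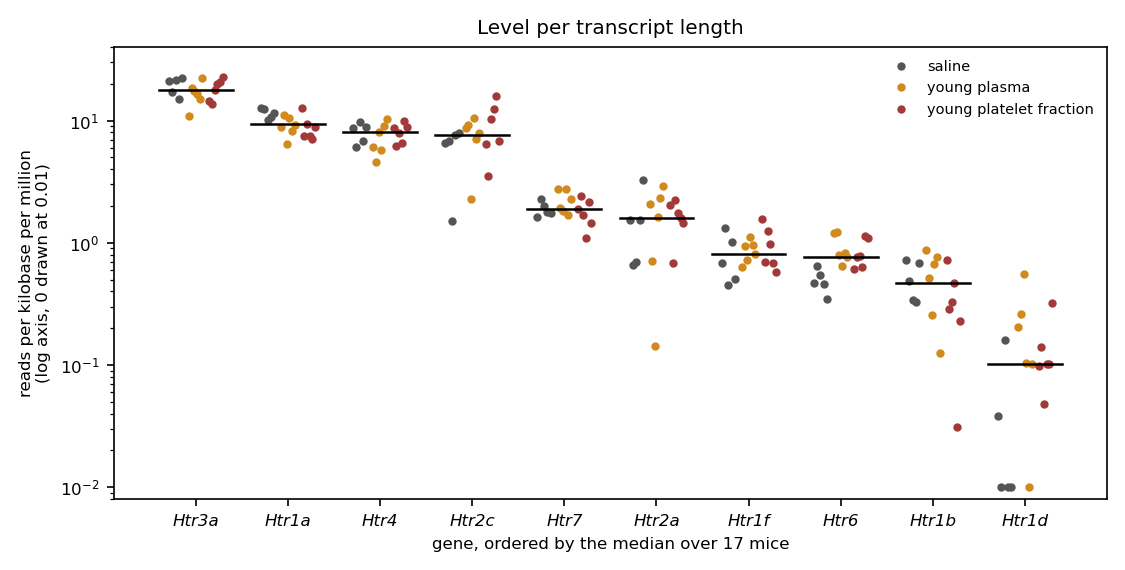
Level of each serotonin receptor gene per transcript length in the 17 hippocampi, in RPKM on a log axis, with a point per mouse coloured by group and a black line at the median over all mice. Htr3a stood at the top with a median of 17.8 and Htr1d at the bottom with 0.102, and the points of Htr4 and Htr2c spread over each other.

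The deposited value is a normalized count, in which each library's reads have been divided by that library's size factor. Reads could be recovered from it, and they set how firmly each receptor could be measured. Htr1a had 214 to 591 reads per library and Htr6 5 to 19. For Htr6 the coefficient of variation that counting alone gives at its mean depth is 27.7%, and the observed one within groups was 26.9%. For Htr2c the same values were 6.07% and 45.1%, a ratio of 7.43, which was the widest of the 10 receptors, followed by Htr2a at 4.47. Sequenced copies carry no molecular identifiers, so the counting values are lower limits.

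Each treatment was compared with saline within its own table with limma on log2(normalized count + 1), over all genes with 10 or more in at least 5 libraries, at the unadjusted P of 0.05 that the study used. The 5 saline libraries are shared by both comparisons, so the 2 sets of differences are not independent of each other. After the young blood plasma preparation 2 of the 9 receptors tested passed the threshold, beside 3.35% of the 13594 genes tested. After the young platelet fraction 2 of 9 passed, beside 3.87% of 13603. They were Htr1a and Htr6 both times. At a Benjamini-Hochberg adjusted p of 0.05 no receptor and no gene at all passed with limma in either comparison (456 and 527 genes at the unadjusted P), none with edgeR, and 0 and 11 genes with DESeq2. Nothing is read from the receptors' counts, because the symbols were chosen with these contrasts known.

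Htr1a, the inhibitory receptor of pyramidal neurons, had lower values in most treated mice. After saline its normalized counts were 417 (mouse 7143), 409 (7146), 343 (7152), 347 (7155) and 384 (7596). After young plasma they ran from 214 over a median of 295 to 366, and after the young platelet fraction from 236 over a median of 273 to 415. In each treated group 5 of 6 mice lay below every saline-treated mouse, and the exceptions were young plasma 7147 at 366 and young platelet fraction 7145 at 415. The share of all genes with this pattern was not counted, and Gnal, described below, had it in both comparisons. The means were 380 ± 34.3 (SD, n = 5) and 297 ± 53.9 (SD, n = 6) in the plasma table. The log2 difference of Htr1a was -0.37 (standard error 0.13, 95% interval -0.65 to -0.09) after young plasma, or 0.773-fold (limma adjusted p = 1.00). After the young platelet fraction the mean was 293 ± 66.3 (SD, n = 6), and the log2 difference was -0.41 (standard error 0.14, 95% interval -0.70 to -0.11), or 0.754-fold (limma adjusted p = 0.998).

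Lists of marker genes moved with the same groups. Of 11 markers of dentate granule cells, a population that also carries Htr1a, 5 fell after young plasma and 3 with the young platelet fraction, with median log2 differences of -0.47 and -0.29, and of 7 CA1 pyramidal markers 0 passed in either, with medians of -0.17 and -0.16. All 7 oligodendrocyte markers rose in both, with medians of 0.51 and 0.62. The 6 ependymal markers had medians of 0.51 and 0.68, and of these Rarres2 passed, higher, after the young platelet fraction. The CA2 marker Amigo2 was higher after young plasma. Lamp5 of the interneuron list, Slc1a3 of the astrocyte list and Tmem119 of the microglia list were lower after the young platelet fraction. These calls are at the unadjusted P, which 3.35% and 3.87% of all genes tested passed. The median log2 difference over all genes was -0.01 and 0.00. With a term for the dentate granule list score the difference of Htr1a was -0.34 after the young platelet fraction and no longer passed, while after young plasma it still passed. With a term for the CA1 list score, chosen after seeing the data, the difference after young plasma was -0.27 and no longer passed. In whole tissue, fewer cells of a type and less RNA per cell cannot be told apart. The part of cell composition in the lower Htr1a values was not tested beyond these terms.

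Htr6, a receptor known chiefly from striatal spiny neurons and from forebrain neurons including those of the hippocampus, had higher values after both treatments at very low depth. Its normalized counts after saline were 8.13 (7143), 11.1 (7146), 9.69 (7152), 7.79 (7155) and 6.04 (7596), from 5 to 16 reads. After young plasma they ran from 11.1 over a median of 14.1 to 21.1, and after the young platelet fraction from 10.5 over 13.4 to 19.7. The highest saline-treated mouse at 11.07 still exceeded the lowest young plasma mouse at 11.06, so the groups overlapped, by 0.01 of a normalized count. No receptor had groups that did not overlap in either comparison, beside 0.191% and 0.257% of all genes tested. The log2 difference of Htr6 was 0.79 (standard error 0.26, 95% interval 0.23 to 1.34) after young plasma (limma adjusted p = 1.00). It was 0.68 (standard error 0.27, 95% interval 0.10 to 1.25) after the young platelet fraction (limma adjusted p = 0.998).

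The second Htr6 call rested on single mice. Without saline 7596, young platelet fraction 7157 or young platelet fraction 7595 the log2 difference was 0.57, 0.58 or 0.60, and it no longer passed the unadjusted threshold. It was also lost with a term for the dentate granule list score (0.70) or for the CA1 list score (0.53). Summed over mice, Htr6 had 49 reads after saline, 89 after young plasma and 83 with the young platelet fraction. A list of striatal spiny neuron markers had scores of -0.10 to 0.07 after saline, -0.18 to 0.89 after young plasma and -0.36 to 0.10 after the young platelet fraction. The score of 0.89 was that of young plasma 7144 alone, followed by 0.35 in young plasma 7147. Whether these scores reflect tissue from outside the hippocampus was not tested.

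**Figure D2:**
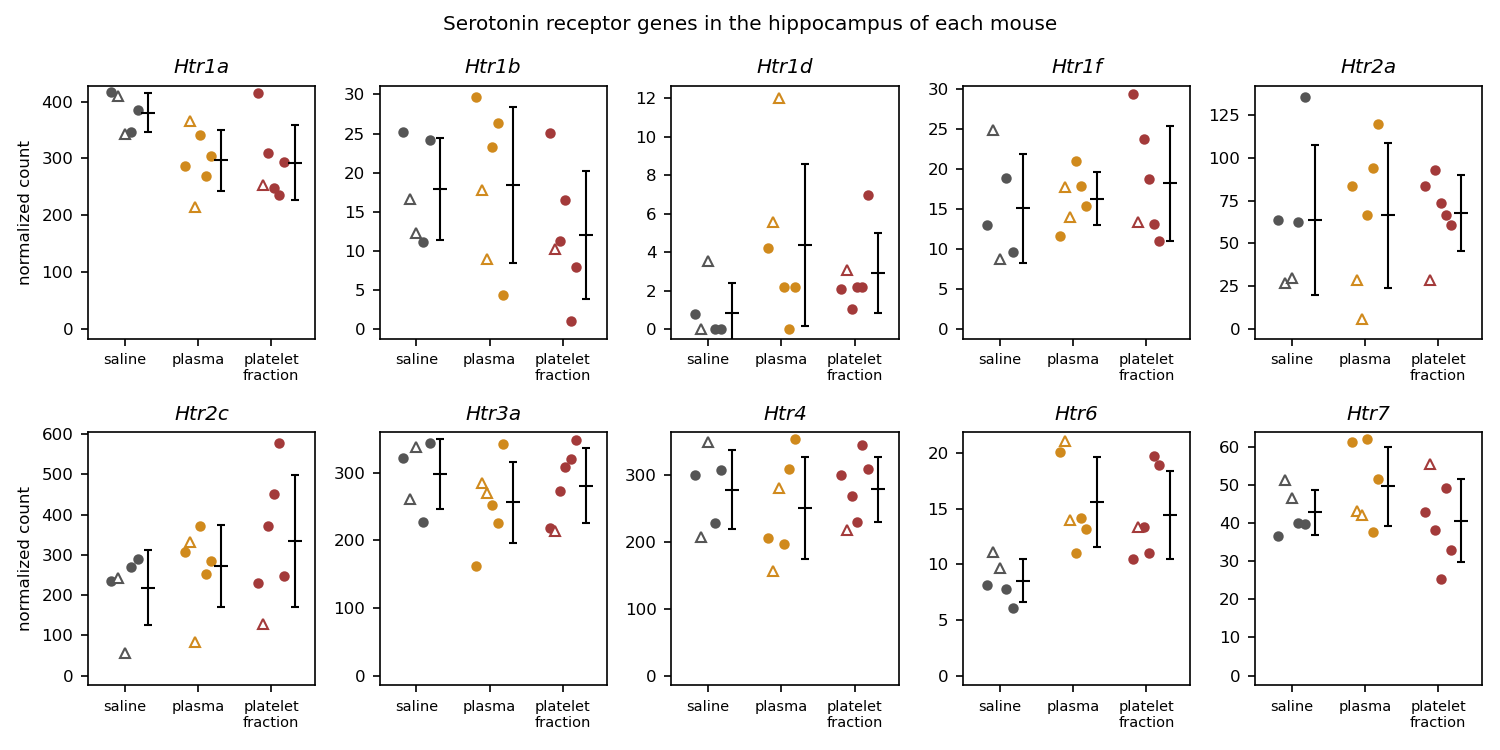
Normalized count of each of the 10 serotonin receptor genes in every hippocampus, by group, with a point per mouse and the group mean ± SD in black. Open triangles are the 5 libraries that stood apart. For Htr1a 5 of 6 mice of each treated group lay below all 5 saline-treated mice, and for Htr2a the 5 triangles were the lowest values.

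The other inhibitory receptors were too scarce for a firm comparison. Htr1b, a receptor of axon terminals, had 11.1 to 25.2 normalized counts after saline, 4.38 to 29.6 after young plasma and 1.10 to 25.1 after the young platelet fraction. The groups overlapped widely, and the log2 differences were -0.12 (95% interval -1.08 to 0.84) and -0.81 (-1.96 to 0.33). Htr1f ran from 8.81 to 24.9, from 11.6 to 21.0 and from 11.0 to 29.3, with log2 differences of 0.18 (-0.45 to 0.81) and 0.27 (-0.45 to 0.98). Htr1d was at 0 reads in 3 of 5 saline libraries and had 5 reads in that group, 25 after young plasma and 17 with the young platelet fraction. Of the 25, 12 came from young plasma 7150 alone. In the fit with no filter on low values, Htr1d also passed the unadjusted threshold in both comparisons.

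Htr2a, the Gq-coupled receptor of cortical and hippocampal neurons, was low in the same 5 libraries that stood apart, whatever the treatment. Its normalized counts after saline were 63.4 (7143), 27.0 (7146), 29.9 (7152), 62.3 (7155) and 135 (7596). After young plasma they ran from 6.00 over a median of 75.0 to 119, and after the young platelet fraction from 28.8 over 70.3 to 92.6. The 5 libraries that stood apart held 6.00 to 29.9 and the other 12 held 60.8 to 135, with no overlap. Those libraries were set apart on a component that held 36.1% of the variance of 10585 genes, Htr2a among them. How many other genes split without overlap was not counted. The split is therefore a description, not shown to be particular to this receptor. The log2 difference was -0.16 (95% interval -1.60 to 1.29) after young plasma and 0.24 (-0.61 to 1.09) after the young platelet fraction. Without the 5 libraries the signs turned, to 0.13 and -0.13. The transcript length score was low in most of the same libraries, and its lowest value, -0.40, was that of young plasma 7150, which also had the lowest Htr2a. With a term for the length score, chosen after seeing the data, the difference after young plasma was 0.22. The part of transcript length in the Htr2a values was not tested otherwise. Htr5a, another receptor gene, was also low in these 5 libraries, at 24.7 to 64.7 against 84.7 to 213 in the other 12. The same limit holds for Htr5a.

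Htr2c, the Gq-coupled receptor of the choroid plexus and of neurons, had the widest span of the abundant receptors. After saline the normalized counts were 236 (7143), 241 (7146), 56.4 (7152), 269 (7155) and 289 (7596). After young plasma they ran from 83.0 over a median of 295 to 373, and after the young platelet fraction from 128 over 310 to 578. In each group a single mouse lay well below the rest, and each of these 3 mice was among the libraries that stood apart. The log2 differences were 0.37 (95% interval -0.60 to 1.35) and 0.64 (-0.31 to 1.59), and neither passed. With a term for the choroid plexus list score the difference after the young platelet fraction was 0.49 and passed the unadjusted threshold (limma adjusted p = 0.994). With a term for the CA1 pyramidal score, added after the data were seen, the difference after young plasma was 1.00 and passed the unadjusted threshold (limma adjusted p = 0.748). With a term for the dentate granule score the differences turned to -0.23 and -0.09.

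Htr2c followed the transcripts of the choroid plexus from mouse to mouse. The 6 relations tested across mice were chosen with earlier results of these data known, so their p-values are a description. The score of 10 choroid plexus markers, which include transthyretin (Ttr), ran from -3.09 to 1.67 on the log2 scale, and Ttr itself from 848 normalized counts in saline 7152 to 55264 in young platelet fraction 7154. With each group's mean subtracted, log2 Htr2c and the score had a Pearson r of 0.906 (permutation p = 5e-05, adjusted p = 0.0003 over 6 relations) and a Spearman rho of 0.868 (permutation p = 4e-05, adjusted p = 0.00024). Without the 2 libraries farthest from the median score, saline 7152 and young platelet fraction 7148, r was 0.814 (permutation p = 0.00036). Within the groups of 6 mice r was 0.791 after young plasma and 0.939 with the young platelet fraction, given with no test, and the 5 saline-treated mice are too few for a value. Without the 5 libraries that stood apart r was 0.70, with an adjusted permutation p of 0.0679. The scores formed no separate clusters, since the widest gap between neighbouring centred values was 23.1% of their range.

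The gene most like Htr2c over the 17 mice was F5, coagulation factor V, itself a choroid plexus marker of the list (r = 0.936), followed by Epn3 (0.931) and Col8a1 (0.929). For Htr2a they were Nrcam (0.946), Bicd2 (0.944) and Rab3gap1 (0.943). For Htr1a they were Gcnt2 (0.833), Arcn1 (0.809) and Lima1 (0.787), and for Htr1b Wars2 (0.803), Wfs1 (0.798), a CA1 pyramidal marker, and Ivns1abp (0.787). Htr3a was most like Hmox2 (0.859), Mrps18a (0.832) and Dgcr6 (0.829), and Htr4 most like Smyd2 (0.847), Kcnmb4 (0.827) and Rpl10a (0.804). Htr1f was most like Gtpbp8 (0.818), Zfp40 (0.760) and Zfp59 (0.753), Htr6 like Ccl25 (0.756), Phf21a (0.746) and Acads (0.735), and Htr7 like Tcof1 (0.795), Tapt1 (0.778) and Brip1os (0.767). These are the highest of many correlations over 17 libraries and are a description.

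Htr1a was less closely related to the CA1 pyramidal markers. Over the 17 group-centred libraries r was 0.631 (permutation p = 0.0070, adjusted p = 0.021) and rho 0.431 (permutation p = 0.0848, adjusted p = 0.170). Without the 2 libraries farthest from the median, young platelet fraction 7145 and 7157, r was 0.351 (permutation p = 0.199). The relation did not hold without these mice, and it also failed to pass without young plasma 7150 alone and without the 5 libraries that stood apart (r = 0.546). With the dentate granule markers r was -0.038 (adjusted permutation p = 0.884) and rho -0.135 (adjusted permutation p = 0.725), and r was 0.156 without the 2 farthest libraries, saline 7152 and young plasma 7159. Within the groups of 6 mice that r was -0.426 after young plasma and 0.701 with the young platelet fraction, opposite in sign and not tested. Among pairs that were not tested, Htr1a and the CA3 pyramidal markers had r = -0.597 over the 17 libraries. Htr1b had r = 0.743 with the CA1 markers and -0.815 with the CA3 markers. The relation with CA1 markers was thus not particular to Htr1a, nor was CA1 the only list related to it.

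The remaining 3 relations did not pass. Htr4 and the dentate granule markers had r = 0.355 (adjusted permutation p = 0.241) and rho = 0.25 (adjusted permutation p = 0.4995), and r was 0.102 without the 2 farthest libraries. Htr3a and the interneuron markers had r = -0.060 (adjusted permutation p = 0.884) and rho = -0.0049 (adjusted permutation p = 0.989), and r = -0.124 without 2. Htr6 and the striatal markers had r = 0.466 (adjusted permutation p = 0.108) and rho = 0.566 (adjusted permutation p = 0.0592), and r = 0.387 without 2. The marker lists are averages over tissue, and a relation that does not pass over 17 whole-tissue samples says nothing of which cells carry a receptor.

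**Figure D3:**
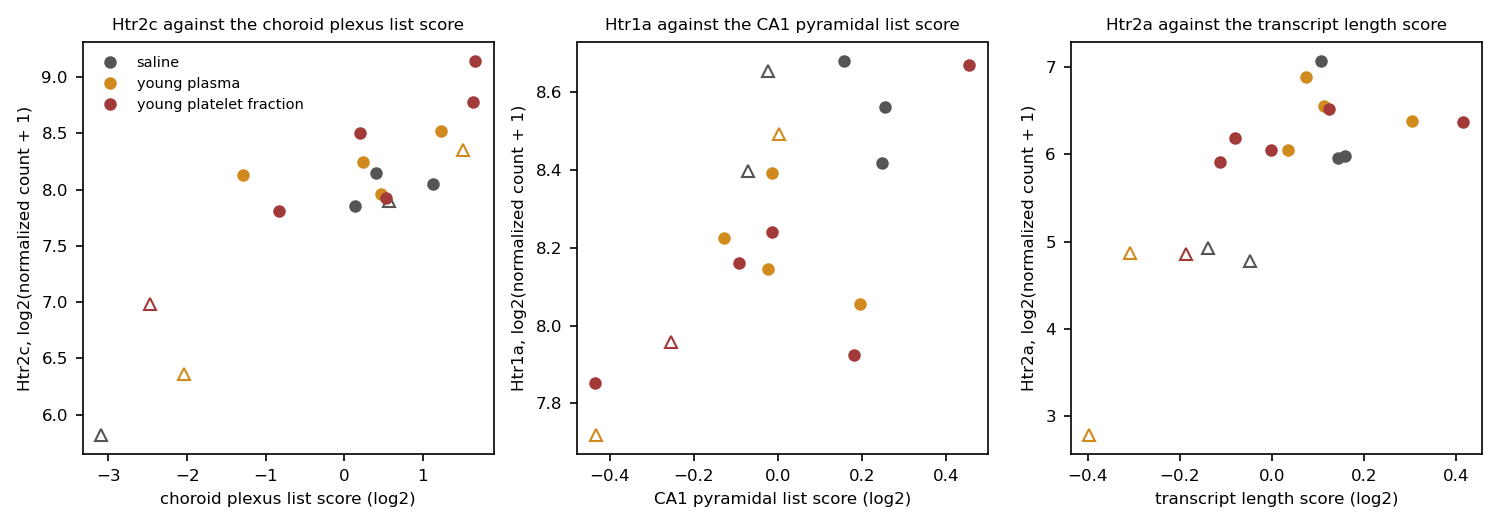
Log2 normalized count of Htr2c, Htr1a and Htr2a in each hippocampus (vertical axes, 17 libraries scaled together) against the choroid plexus list score, the CA1 pyramidal list score and the transcript length score (horizontal axes, log2), with open triangles for the 5 libraries that stood apart. Htr2c rose with the choroid plexus score (r = 0.906 after group means were subtracted), Htr1a less closely with the CA1 score (0.631), and the 5 triangles of Htr2a lay below all other mice.

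Htr3a, the channel subunit, and Htr4, a Gs-coupled receptor, were measured with 141 to 396 reads per library and showed no difference that passed. Htr3a was at 322 (7143), 262 (7146), 337 (7152), 227 (7155) and 344 (7596) after saline, at 162 to 342 (median 261) after young plasma and at 214 to 349 (median 291) after the young platelet fraction. Its log2 differences were -0.24 (95% interval -0.62 to 0.15) and -0.10 (-0.44 to 0.24). Htr4 was at 299, 206, 348, 228 and 307 after saline in the same order of mice, at 157 to 353 (median 243) after young plasma and at 217 to 344 (median 284) after the young platelet fraction. Its log2 differences were -0.18 (-0.64 to 0.28) and 0.00 (-0.34 to 0.34). All groups overlapped.

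Htr7, also Gs-coupled, was at 36.6 (7143), 51.2 (7146), 46.7 (7152), 40.04 (7155) and 39.9 (7596) after saline, at 37.7 to 61.9 (median 47.4) after young plasma and at 25.3 to 55.5 (median 40.5) after the young platelet fraction. The log2 differences were 0.19 (95% interval -0.19 to 0.57) and -0.12 (-0.56 to 0.33). The groups overlapped in both comparisons.

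The treatments were set against each other in a fit without saline, on values of both tables rescaled together. None of the 9 receptors passed the unadjusted threshold, beside 1.90% of the 13693 genes tested (260 genes), and no receptor had groups that did not overlap (0.0803% of all genes), and no gene passed the adjusted threshold with limma, edgeR or DESeq2. Htr1a differed by -0.04 (95% interval -0.37 to 0.29) and Htr6 by -0.11 (-0.64 to 0.42), young platelet fraction minus young plasma. The widest gaps were those of Htr1b at -0.69 (-1.92 to 0.54) and Htr2a at 0.40 (-0.83 to 1.63), and Htr7 differed by -0.31 (-0.75 to 0.14). The interval of Htr6 ended short of the size of its differences against saline (0.79 and 0.68), and that of Htr1a ended close to theirs (-0.37 and -0.41). Those of Htr1b and Htr2a were wider.

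**Figure D4:**
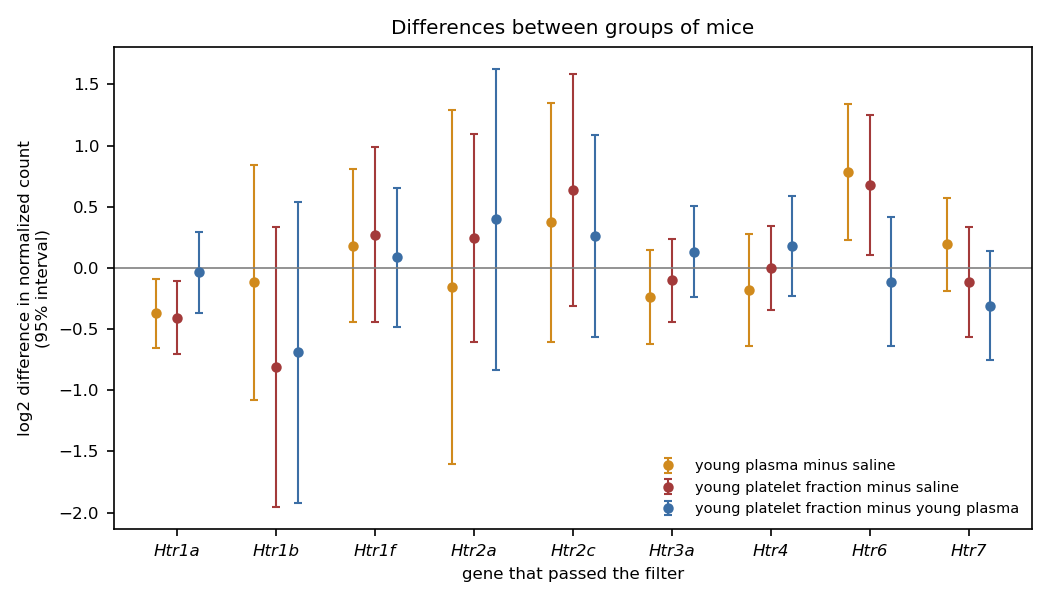
Log2 difference in normalized count for the 9 serotonin receptor genes that passed the filter, with 95% intervals from limma, for each treatment minus saline and for the young platelet fraction minus young plasma. The intervals of Htr1a (-0.65 to -0.09 and -0.70 to -0.11) and Htr6 (0.23 to 1.34 and 0.10 to 1.25) against saline lie off 0, and all intervals between the treatments include 0.

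Of the 4 receptor genes outside the list, Htr5b and Htr5a were well expressed, with medians of 8.10 and 3.24 RPKM, and Htr2b (0.287) and Htr3b (0) were not. Htr5a and Htr5b were tested and neither passed, with log2 differences of 0.18 and -0.36 with plasma and 0.35 and -0.19 after the young platelet fraction. Among 10 genes of serotonin synthesis, transport and breakdown 6 were tested. None passed in the plasma comparison. In the platelet comparison Slc18a2, the vesicular monoamine transporter, was lower at 72.3 ± 21.3 (SD, n = 6) against 95.6 ± 17.0 (SD, n = 5) normalized counts (log2 difference -0.43, limma adjusted p = 0.998). After young plasma its difference was -0.32, which did not pass.

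Of 28 tested genes for G proteins and effectors, 1 was lower in each comparison with saline and 0 were higher, a share near that of all genes tested (3.35% and 3.87%). That gene was Gnal, which encodes the Golf subunit that stimulates adenylyl cyclase, at -0.20 after young plasma and -0.30 with the young platelet fraction (limma adjusted p = 1.00 and 0.998), against saline libraries that the comparisons share. The list's median log2 differences were -0.03 and -0.05. Of 15 regulators and partners of the receptors none passed in any comparison, with medians of 0.01 and 0.04 against saline. Between the treatments no gene of these 4 lists passed.

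In isolated microglia most receptors were not detected. The 7 libraries held 19855188 to 36342162 counted reads, and 6 of the 10 receptors, Htr1a, Htr1f, Htr3a, Htr4, Htr6 and Htr7, had 0 reads in all of them, which allows up to 0.151 RPM (reads scaled to the library total) in the shallowest. Over the hippocampi the same genes had medians from 1.78 (Htr6) to 42.0 (Htr1a) RPM. Cx3cr1, a microglial marker, had a median of 6395 RPM in the microglia and 143.9 in the hippocampi.

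Of the 4 receptors with reads, Htr2c had the most, in libraries that also held choroid plexus transcripts. It had 37 reads in microglia saline 2, 0 in saline 3 and saline 4, 1 in PF4 1, 1469 in PF4 2, 2 in PF4 3 and 993 in PF4 4. Ttr had 8013, 20495 and 13391 RPM in saline 2, PF4 2 and PF4 4 and 25.2 to 36.7 in the other 4 libraries, so that the 3 libraries with more than 2 reads of Htr2c were the 3 with high Ttr. In saline 2, PF4 2 and PF4 4, Htr2c was at 1.86, 57.8 and 36.4 RPM. F5, another choroid plexus marker, was at 64.1, 42.8 and 19.9 RPM, highest where Htr2c was lowest. The part of choroid plexus tissue in these Htr2c values was not tested. The other receptors with reads were Htr1d, with 153 reads in PF4 1, Htr1b, with 40 in PF4 3 and 1 in PF4 4, and Htr2a, with 75 in PF4 4. PF4 1 and PF4 3 were among the libraries low in Ttr. No test was made on these libraries.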

How the data were processed

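RNA of 17 hippocampi and 7 microglia preparations was extracted with TRIzol and sequenced. Per the labels and the methods, the authors used STAR for alignment to mm10, RSEM for counting and DESeq2 for scaling. The signal they deposited, in 3 tables of 24411 genes, is a normalized count per library. The authors' own fold changes and p-values, also in the tables, were not used. A modified Smart-Seq2 preparation is named in the methods, and a strand-specific poly(A) kit in the labels.

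Samples were grouped by their labels. All values were whole multiples of the value of 1 read to within 0.01 of a read, which gave back the reads for 100% of them. The 2 hippocampal tables were scaled separately. The contrast of the treatments and the relations across mice use median-of-ratios scaling of the recovered reads of all 17 libraries. Levels per length use GENCODE M21 transcripts, because RefSeq transcript lengths were not used here.

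Differences were tested with limma 3.58.1 in R 4.3.3, with the variance trended on mean expression and a pseudocount of 1, over genes with 10 or more normalized counts in at least 5 libraries. The pseudocount shrinks the differences of low genes. Relations across mice were tested two-sided with 100000 permutations of the pairings and adjusted over 6 relations. A list score is the mean of gene-centred log2 values over the list's genes with a mean of 10 or more. The scripts were tested on simulated counts with known changes.

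The members, the gene lists and the 6 relations were chosen with earlier results of these data known. Named are all members, the pathway-list genes past the threshold, and for each member tested in both tables the 3 genes with the highest r among those with a mean normalized count of 50 or more. Other settings were a pseudocount of 0.5 or 5, testing all genes or only those at 50 or more, scaling by TMM or by library totals, edgeR 4.0.16, DESeq2 1.42.0, all 3 groups in 1 fit, terms for the choroid plexus and dentate granule scores, leaving out the 5 libraries that stood apart and leaving out each library in turn. Terms for the transcript length score and the CA1 score were chosen after seeing the data.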

Additional observations from a re-analysis of the deposited data

Results flagged for a closer look

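Highest or lowest values that stood off from their group by Dixon's criterion were found in 6 of 52 groups looked at. Most of these values stood in groups whose other libraries held few or no reads, so their number cannot be set against a chance rate. In the hippocampus they were Htr2c at 56.4 normalized counts in saline 7152, whose choroid plexus score was the lowest of all mice at -3.09, Htr1d at 3.52 in the same saline 7152, and Htr1d at 6.97 in young platelet fraction 7595. The Htr1d values are 4 and 7 reads.

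In microglia, where no comparison was made, some PF4 libraries held more of a receptor than any saline library. Only this direction was looked for, and not saline values above every PF4 library. Htr2c was at 1416 normalized counts in PF4 2 and at 941 in PF4 4, against a highest saline value of 45.9 in saline 2. These were the libraries high in Ttr, at 20495 RPM in PF4 2, 13391 in PF4 4 and 8013 in saline 2. The choroid plexus marker F5 was highest in saline 2, at 64.1 RPM. Htr1b at 32.7 in PF4 3, Htr1d at 116 in PF4 1 and Htr2a at 71.0 in PF4 4 each stood alone in their group, and Htr1b was also at 0.947, a single read, in PF4 4. The saline libraries held 0 reads of Htr1b, Htr1d and Htr2a. The cause of these single high values was not tested.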

How the results depend on the processing

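No paired analysis was possible because the hippocampal groups compared share no replicate numbers and the microglia were not compared. In both comparisons with saline, Htr1a kept its sign in every setting in which it was tested, with log2 differences from -0.53 to -0.27 after young plasma and from -0.51 to -0.32 after the young platelet fraction, and so did Htr6, at 0.59 to 0.89 and 0.51 to 0.87. The number of receptors called was 1 in both comparisons at a filter of 50, which leaves 5 receptors, among them Htr1a and not Htr6. After the young platelet fraction it was 0 with the dentate granule term, 1 with the CA1 term and 1 to 2 without single mice. After young plasma it was 2 whichever single mouse was left out.

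Counts of all genes called moved more. After young plasma they were 249 with the dentate granule term, 853 with the length term, 847 with the CA1 term and 300 to 621 without single mice, against 456. After the young platelet fraction they were 347 to 876 without single mice, against 527. Between the treatments they were 471 with no filter and 208 to 448 without single mice, against 260. The cause was not tested.

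Signs of small differences that passed no threshold turned. After young plasma, Htr1b was 0.056 with edgeR, 0.045 with DESeq2 and 0.31 with the CA1 term, Htr2a was 0.10 with edgeR, 0.070 with DESeq2, 0.13 without the 5 libraries that stood apart, 0.22 with the length term and 0.84 with the CA1 term, and with the dentate granule term Htr2c was -0.23 and Htr4 0.060. After the young platelet fraction, Htr2a was -0.13 without the 5 libraries and -0.11 with the dentate granule term, Htr2c was -0.090 with that term, and Htr4 was -0.011 with TMM, -0.0081 with edgeR, -0.0048 with DESeq2, -0.00037 with all 3 groups in 1 fit and -0.017 with the CA1 term. Between the treatments Htr2a was -0.26 without the 5 libraries. Without single mice the ranges that crossed 0 were, after young plasma, -0.30 to 0.20 for Htr1b, -0.42 to 0.40 for Htr2a and -0.063 to 0.68 for Htr2c. After the young platelet fraction they were -0.10 to 0.089 for Htr4 and -0.21 to 0.0075 for Htr7. Between the treatments they were -0.14 to 0.028 for Htr1a, -0.063 to 0.21 for Htr1f, -0.16 to 0.66 for Htr2a and -0.049 to 0.51 for Htr2c.

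The p-values of the relations across mice are a description. The relation of Htr2c and the choroid plexus markers had r from 0.859 to 0.955 without single mice and passed each time. Without the 5 libraries its r was 0.70, and it did not pass. That of Htr1a and the CA1 markers was 0.546 without the 5 libraries, where it did not pass, and 0.420 to 0.738 without single mice. It did not pass without young plasma 7150, young platelet fraction 7145 or young platelet fraction 7157. Htr1a and the dentate markers had r = 0.298 with no group mean subtracted, 0.175 without the 5 libraries and -0.349 to 0.0568 without single mice. Htr3a and the interneuron markers had 0.0253 without the 5 and -0.222 to 0.0673 without single mice, and Htr6 and the striatal markers 0.349 to 0.587. Over union exons the level of Htr2c moved to 4.00 RPKM. Depth limits Htr1b, Htr1d, Htr1f and Htr6 most, at 0 to 36 reads per library.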
